A study of Homo sapiens with 9 samples.

Results

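H1R6 denotes HEK293T cells that had recovered for 6 h from a heat stress of 1 h, and their transcriptome was compared here with that of untreated cells (NC) over 18871 genes. The question put to the comparison was which transcripts were still changed at that time and which were back at the untreated level. The comparison used 4 of the 9 RNA-seq libraries of the series, chosen by the condition in their labels and by no measured value. The 2 H1R6 libraries came from cells heated at 43 °C for 1 h and then returned to 37 °C for 6 h. The 2 NC libraries came from wild-type cells that were not heated. The libraries of cells collected at the end of the heating (H1, n = 2) and after 1 h of recovery (H1R1, n = 2) entered the same fit, so that the level at H1R6 could be set against the earlier ones. A single library after 18 h of recovery (H1R18) entered no test. All libraries are of 1 cell line, HEK293T, a human embryonic kidney line that carries the SV40 large T antigen, and no other genotype or agent separates the groups. Nothing in the sources says that the libraries of a group came from separate cultures, so the p-values measure only the spread between these libraries, which may be technical.

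Heat unfolds proteins, and in human cells the transcription factor HSF1 answers by binding heat shock elements in front of chaperone genes. Chaperones fold and hold client proteins, and as free chaperones accumulate they restrain HSF1, so the response is transient. Other programmes run beside it. The integrated stress response acts through the transcription factor ATF4 on genes of amino acid supply, immediate early genes such as JUN are switched on briefly by stress kinases, and transcripts of the replication-dependent histones are made during DNA synthesis.

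Total counts were 5533404 and 5652672 in the H1R6 libraries and 4922367 and 3814195 in the NC libraries, and the 9 libraries ranged from 3814195 to 6221613. Levels are given in CPM, the share of a library's counts on a scale adjusted by the TMM method, and a log2 fold change is a difference of levels on the log2 scale. Differences between the libraries of a pair exceeded counting error, with a chi-square per degree of freedom of 1.75 at H1R6 and 2.35 in NC. All 7 genes listed as markers of HEK293 cells, VIM, KRT8 and KRT18 among them, were measured. The neurofilament gene NEFL had 85.5 and 80.8 CPM at H1R6 against 85.9 and 92.7 CPM in NC. Of the 7 genes 1 was called higher and 2 lower at H1R6 (0 higher and 1 lower without any 1 of the NC and H1R6 libraries). No library had more than 4 counts of any of 6 hepatocyte markers. Of 6 HeLa markers and 6 leukocyte markers, 2 each passed the filter on low counts, and none of these 4 was called at H1R6 by edgeR or by DESeq2, with 1 at an unadjusted p under 0.05 (the leukocyte gene CD14, with 0 counts in both H1R6 libraries and 2 in each NC library).

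By edgeR's quasi-likelihood test with Benjamini-Hochberg adjustment over all 18871 genes, 1499 genes (7.94%) differed between H1R6 and NC at an adjusted p under 0.05 and are referred to as called. Of these, 652 (3.46%) were higher and 847 (4.49%) were lower at H1R6. The libraries of the 2 groups did not overlap in 651 of the 652 and 843 of the 847, so such a separation came with nearly every call. The changes were small: the median log2 fold change was 0.51 among the genes called higher (interquartile range 0.38 to 0.77) and -0.53 among those called lower (-0.81 to -0.38). Changes called and beyond 1 on the log2 scale numbered 111 (0.588%) upwards and 131 (0.694%) downwards. A gene was taken as back at the untreated level where the whole 95% interval of its log2 fold change lay between -0.5 and 0.5. The rule did not ask whether a gene had moved at H1 or H1R1, so the term also covers genes that had not. It was met by 5387 genes (28.5%). Of these, 5204 were not called and 183 were called with a change inside those bounds. For 12168 genes (64.5%) neither statement could be made. How often a return to the untreated level could be stated depended on expression: it could for 67.8% of the 7104 genes whose log2 CPM averaged 5 or more, where the median SE was 0.12, and for 0.0623% of the 4813 genes under 2, where it was 0.74. Counts within 0.5 in the lists below stand against these shares, 28.5% over all genes tested and 67.8% at a log2 CPM of 5 or more. Measured by the same fit, 758 genes (4.02%) were higher and 392 (2.08%) lower at H1, and 2247 (11.9%) were higher and 2048 (10.9%) lower at H1R1, each against NC. All 3 comparisons share the NC libraries. Between H1R6 and H1R1, 1413 genes (7.49%) were higher and 1874 (9.93%) were lower at H1R6. Single libraries weighed on the number of calls: without H1R6 replicate 1 it was 386 higher and 480 lower, without H1R6 replicate 2 it was 245 higher and 340 lower, and without NC replicate 1 it was 496 higher and 479 lower. The libraries are bulk RNA, in which a lower transcript level in every cell and a change in fewer cells cannot be told apart.

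**Figure D1:**
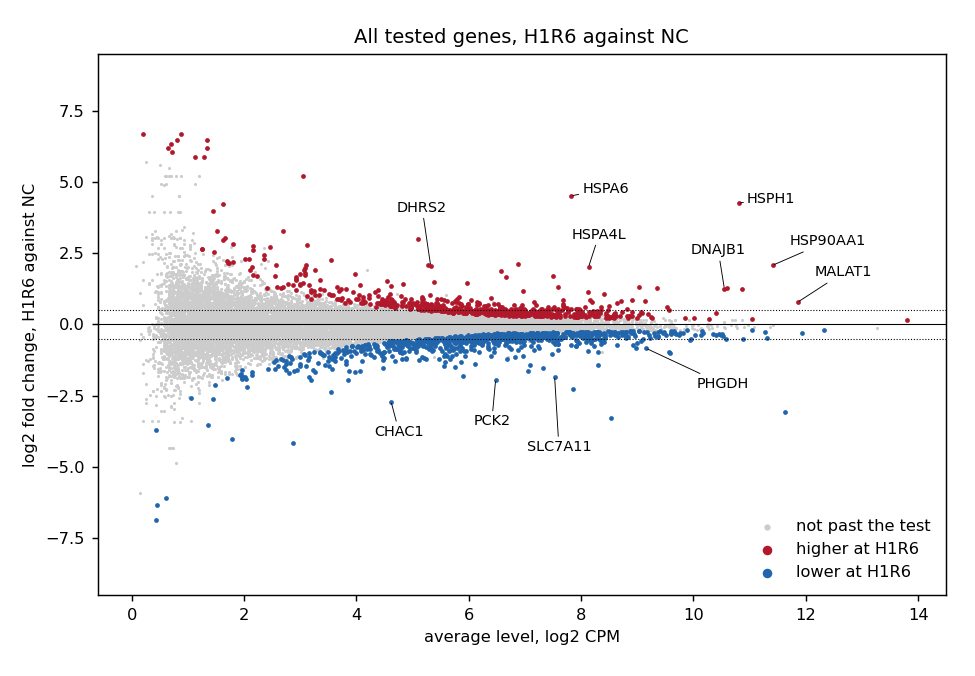
Log2 fold change of H1R6 over NC (vertical axis) against average log2 CPM (horizontal axis) for the 18871 genes tested (points, coloured where called), with dotted lines at -0.5 and 0.5. Most of the 652 genes called higher and 847 called lower lie within 1 log2 unit of 0, and HSPH1 (4.27) and HSPA6 (4.52) stand highest among the genes with a name in the plot.

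Cytosolic chaperones were often still high at H1R6. Of 36 listed genes, 32 were tested and 16 of them were higher at H1R6, against 3.46% of all genes tested, while 8 were back at the untreated level. The median log2 fold change of the 32 was 0.59, against -0.0035 over all genes tested. No member was called lower by edgeR or DESeq2, and 2 were lower at an unadjusted p under 0.05. At H1, 21 of the 32 were called higher, with a median of 0.65, and at H1R1 24 were, with a median of 1.22. Between H1R6 and H1R1 directly, 15 were lower and 1 was higher. Leaving out 1 library at a time gave 14 to 17 members higher at H1R6. The inducible HSP70 genes HSPA1A and HSPA1B had at most 3 counts in any library and were not tested. RPS18 and TUBB, which like them lie in or near the major histocompatibility region, had 0 and at most 4 counts in any library although both are widely expressed. Whether the reference held further copies of this region was not determined, so these counts do not show that the HSP70 genes were silent.

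The chaperones could be set apart by how far they had come back, and heat shock elements are printed here for HSP90AA1, HSPA6, CHORDC1 and the collagen chaperone gene SERPINH1, which is not in the list of cytosolic chaperones. They are shown because the same kind of site precedes genes within 0.5 log2 units of their H1R1 level and genes that had fallen further below it. Each window is from the RefSeq promoter sequence of GRCh38.p14, written 5′ to 3′ on the gene's strand, with the matches to the heat shock element on either strand in capitals. The motif is GAA, a pair of any bases, TTC, a pair of any bases and GAA, or on the other strand TTC, GAA and TTC spaced in the same way. The match lay 88 to 76 bases before the start of HSP90AA1 (chr14:102087095-102087157, minus strand), 76 to 64 bases before that of SERPINH1 (chr11:75562152-75562214, plus strand) and 74 to 62 bases before that of HSPA6 (chr1:161524441-161524503, plus strand). In CHORDC1 (chr11:90223062-90223134, minus strand) 3 overlapping matches covered bases 60 to 38 before the start.
HSP90AA1: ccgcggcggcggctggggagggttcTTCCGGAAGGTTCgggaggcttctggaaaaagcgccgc
SERPINH1: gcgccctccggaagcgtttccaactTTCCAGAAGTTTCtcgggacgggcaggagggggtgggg
HSPA6: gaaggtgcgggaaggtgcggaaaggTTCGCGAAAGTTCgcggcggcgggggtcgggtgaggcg
CHORDC1: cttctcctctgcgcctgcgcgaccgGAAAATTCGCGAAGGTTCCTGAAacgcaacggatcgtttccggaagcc
Promoters here are the 250 bases before and 50 after a gene's start. Of 35116 promoters, 172 (0.49%) held such a match, as did 58 of the 11695 tested genes with a promoter entry (0.496%). Among the listed cytosolic chaperones 28 had an entry and 7 of these (25%) held a match: HSP90AA1, HSP90AB1, HSPA6, DNAJA1 and CHORDC1, which were called higher at H1R6, and HSPA8 and DNAJB6, which were not. Of the 28 chaperone genes with an entry 15 were called higher, with or without a match. A match is a run of letters in the reference and not a measured binding site.

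Several abundant chaperones were still far above NC and differed from their H1R1 level by less than 0.5 on the log2 scale. HSPH1 (HSP105, an exchange factor of HSP70; chr13:31134973-31162388) had 2392 and 2760.3 CPM at H1R6 against 134 and 133 CPM in NC, a log2 fold change of 4.27 (edgeR, adjusted p = 2.92e-25, SE 0.07). The H1R6 libraries lay far above both NC libraries, and the H1R6 level did not differ by call from that at H1R1 (log2 difference -0.07, adjusted p = 0.463). HSP90AA1, the inducible cytosolic HSP90 (chr14:102080742-102139699), had 4035 and 4348 CPM at H1R6 against 983 and 1000.1 CPM in NC. Its log2 fold change was 2.08 (edgeR, adjusted p = 3.87e-21, SE 0.05), against 1.16 at H1 and 1.81 at H1R1, and it was the chaperone called higher at H1R6 than at H1R1 (log2 difference 0.27, adjusted p = 0.00036). HSP90AB1, the constitutive HSP90, had 2344 and 2535 CPM at H1R6 against 1061 and 987 CPM in NC (log2 fold change 1.25, SE 0.06), and HSPA4L, a further HSP110 family member, had 313 and 351 CPM at H1R6 against 81.8 and 82.04 CPM in NC (log2 fold change 2.02, SE 0.09, after 2.43 at H1R1). HSPA4L was called lower at H1R6 than at H1R1 (log2 difference -0.41, adjusted p = 0.00107, edgeR). Processed pseudogenes of HSP90 and HSP60 (HSP90AA2P, HSP90AA6P and HSPD1P6) were also among the 15 largest increases, and as near-identical copies of the parent genes they are uncertain, since reads can be shared between copies.

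Transcripts of other chaperones and of partner proteins also stayed high. The small heat shock protein gene HSPB1 had 118 and 138 CPM at H1R6 against 32.6 and 36.6 CPM in NC (log2 fold change 1.89, SE 0.15), and SERPINH1, the collagen chaperone HSP47, had 202 and 199.6 CPM at H1R6 against 62.7 and 59.6 CPM in NC (log2 fold change 1.71, SE 0.10). The HSP90 cochaperones were called higher by smaller amounts: 1.08 for FKBP4 (347 and 368 CPM at H1R6 against 182 and 155 CPM in NC), 0.84 for STIP1, which links HSP70 to HSP90, and 0.83 for PTGES3, the p23 cochaperone. CACYBP had 306 and 314 CPM at H1R6 against 127 and 159 CPM in NC (log2 fold change 1.13, SE 0.09). In all of these both H1R6 libraries lay above both NC libraries.

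Another set had fallen far since H1R1 but was still above NC. HSPA6, the strictly inducible HSP70 gene, had 26.1 and 58.9 CPM at H1R6 against 0.814 and 3.14 CPM in NC, with log2 fold changes of 6.97 at H1, 8.39 at H1R1 and 4.52 at H1R6 (edgeR, adjusted p = 1.27e-08, SE 0.41). The NC libraries held 4 and 12 counts of it, and leaving out 1 library moved the H1R6 value between 3.77 and 5.67. DNAJB1, the HSP40 that partners HSP70, had 139 and 219 CPM at H1R6 against 69.4 and 80.5 CPM in NC, a log2 fold change of 1.26 (edgeR, adjusted p = 4.13e-08, SE 0.12), after 5.65 at H1R1. BAG3, an HSP70 cochaperone of selective autophagy, had 60.8 and 94.7 CPM at H1R6 against 32.1 and 30.6 CPM in NC (log2 fold change 1.31, SE 0.15), after 3.72 at H1R1. In both genes H1R6 replicate 2 was the higher library, and the fold change was 1.55 and 1.59 without replicate 1 and 0.89 and 0.95 without replicate 2, for DNAJB1 and BAG3 in that order. CHORDC1, an HSP90 cochaperone, had 130.2 and 169 CPM at H1R6 against 84.6 and 106 CPM in NC (log2 fold change 0.66, SE 0.11), after 2.34 at H1R1. DNAJA1, another HSP40, had 158 and 225 CPM at H1R6 against 138 and 130.1 CPM in NC (log2 fold change 0.51, SE 0.11), after 2.2 at H1R1. Its call was lost without H1R6 replicate 2 (0.23, adjusted p = 0.288, edgeR) and with DESeq2. HSPA7, annotated as a pseudogene close to HSPA6, had 5 counts in each H1R6 library and 0 in both NC libraries, and the counts of such close copies are uncertain.

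Other chaperones were back at the untreated level. HSPA8, the constitutive HSP70, had 434 and 624 CPM at H1R6 against 432 and 510.2 CPM in NC, a log2 fold change of 0.17 (95% interval -0.06 to 0.40), after 2.04 at H1R1, and the drop between H1R1 and H1R6 was called (log2 difference -1.87, adjusted p = 1.43e-12, edgeR). Its libraries overlapped between the groups, and its interval left the bounds without H1R6 replicate 1 (log2 fold change 0.41) or without NC replicate 2. DNAJB6, an HSP40 that holds aggregation-prone proteins, had 76.3 and 76.1 CPM at H1R6 against 69.8 and 77.3 CPM in NC (log2 fold change 0.05, interval -0.15 to 0.26), after 1.83 at H1 and 1.77 at H1R1. ST13, an HSP70 cochaperone, had 201 and 201 CPM at H1R6 against 199.6 and 194 CPM in NC. Of the 5 heat shock factor genes and regulators tested, none was called by edgeR or DESeq2 and none had an unadjusted p under 0.05. HSF1 itself had 74.5 and 76.6 CPM at H1R6 against 87.9 and 78.4 CPM in NC (log2 fold change -0.14, interval -0.35 to 0.07).

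**Figure D2:**
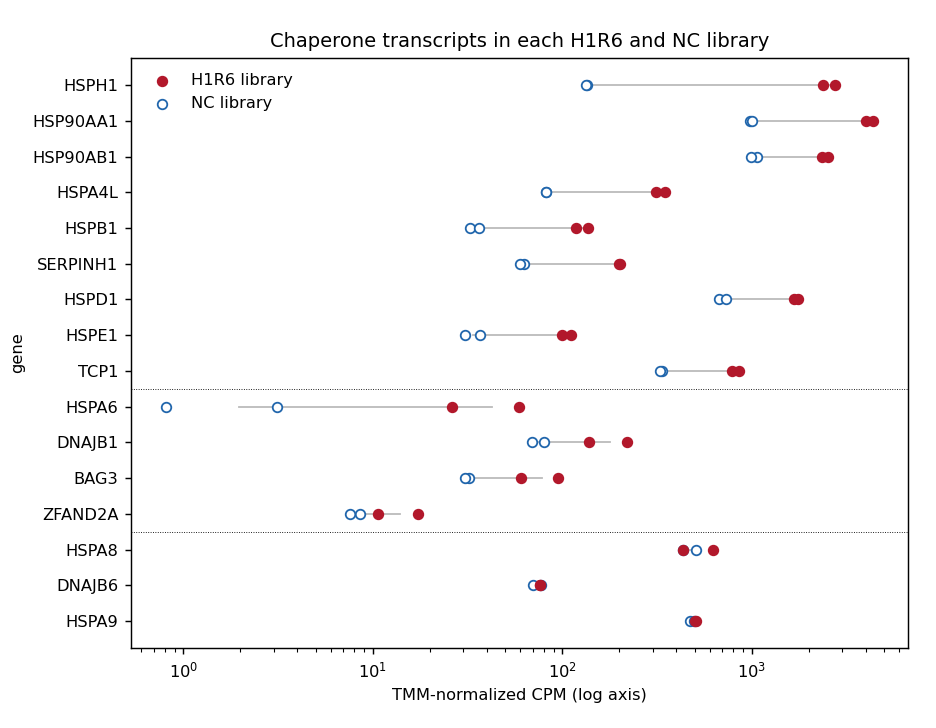
Level in TMM-normalised CPM (horizontal log axis) of chaperone and related genes in each H1R6 library (filled) and NC library (open), with a grey line between the means, and dotted lines between genes that stayed high, had partly returned or were back at the NC level. HSPH1 has 2392 and 2760.3 CPM at H1R6 against 134 and 133 CPM in NC, whereas the libraries of HSPA8 and DNAJB6 overlap between the groups.

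The chaperonin genes TCP1, HSPD1 and HSPE1 were strongly raised, beside small changes in others. Over all genes tested 3.46% were called higher and 4.49% lower. Of the 8 subunits of the cytosolic chaperonin TRiC, which folds actin and tubulin, 4 were higher and 1 lower at H1R6 and 6 lay within 0.5 (median log2 fold change 0.24, against 0.42 at H1R1, where all 8 were called higher). TCP1, subunit 1, had 784 and 854 CPM at H1R6 against 337 and 330.0 CPM in NC (log2 fold change 1.30, SE 0.07, adjusted p = 3.08e-13, edgeR). The number of TRiC subunits called higher was 1 without H1R6 replicate 2 and 2 without H1R6 replicate 1, NC replicate 1 or either H1 library, and the lower call was lost without any 1 of the H1R6, NC or H1 libraries. Mitochondrial chaperones and proteases gave 2 higher and 2 lower (0 without H1R6 replicate 2, and 1 without H1R6 replicate 1 or any 1 of the NC and H1 libraries or H1R1 replicate 2) of 14, with 11 within 0.5. The 2 that were higher were the HSP60 gene HSPD1, at 1669 and 1751 CPM at H1R6 against 669 and 735 CPM in NC (log2 fold change 1.28, SE 0.06), and the gene of its HSP10 lid, HSPE1, at 112 and 99.6 CPM at H1R6 against 30.5 and 36.8 CPM in NC (log2 fold change 1.66, SE 0.12). These neighbouring genes on chromosome 2 were also lower than at H1R1, by 0.21 and 0.38 on the log2 scale. HSPA9, the mitochondrial HSP70, had 509 and 500.2 CPM at H1R6 against 475 and 494 CPM in NC and was back at the untreated level (interval -0.08 to 0.20).

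Genes of the ATF4 and integrated stress response list were mostly lower at H1R6. Of 39 listed genes, 38 were tested and 32 of them were lower at H1R6, against 4.49% of all genes, with a median log2 fold change of -0.93. None was called higher by edgeR or DESeq2, nor at an unadjusted p under 0.05. At H1 the list was mixed, with 3 called higher and 3 lower (median -0.11), and at H1R1 4 were called higher and 23 lower (median -0.51). Between H1R6 and H1R1, 18 members were called lower at H1R6. Leaving out 1 library at a time left 27 (without H1R6 replicate 2) to 32 members lower. Within H1R6, 7 of the 38 members were higher in replicate 2 than in replicate 1 (median log2 difference -0.15), and within NC 18 were (median 0.00).

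Composite ATF4 sites, often called amino acid response elements, read TGATG, any base and AA, or on the other strand TT, any base and CATCA. They are shown for 4 genes of the list and 3 tRNA synthetase genes, from the same RefSeq promoters and in the same form, because genes of both groups were lower at H1R6. The match lay 209 to 202 bases before the start of CHAC1 (chr15:40953237-40953294, plus strand), 68 to 61 bases before that of ASNS (chr7:97872444-97872501, minus strand), 16 to 9 bases before that of JDP2 (chr14:75427981-75428021, plus strand) and 191 to 184 bases before that of ATF3 (chr1:212565191-212565248, plus strand). In the synthetase genes it lay 187 to 180 bases before the start of AARS1 (chr16:70289661-70289718, minus strand), 33 to 26 bases before that of GARS1 (chr7:30594820-30594877, plus strand) and 13 to 6 bases before that of IARS1 (chr9:92293698-92293735, minus strand).
CHAC1: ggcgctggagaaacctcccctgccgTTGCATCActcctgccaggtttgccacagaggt
ASNS: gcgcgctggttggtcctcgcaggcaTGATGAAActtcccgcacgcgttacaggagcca
JDP2: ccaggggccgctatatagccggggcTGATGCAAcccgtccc
ATF3: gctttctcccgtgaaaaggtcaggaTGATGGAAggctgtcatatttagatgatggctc
AARS1: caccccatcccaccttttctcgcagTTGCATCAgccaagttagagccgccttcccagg
GARS1: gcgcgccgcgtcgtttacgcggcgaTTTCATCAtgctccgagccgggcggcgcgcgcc
IARS1: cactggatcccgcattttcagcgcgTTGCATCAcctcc
This shorter motif is common: 1270 of 35116 promoters (3.62%) and 327 of the 11695 tested genes with an entry (2.80%) held it. In the ATF4 list 9 of 30 genes with an entry held a match (30.0%), namely ASNS, ATF3, CEBPG, CHAC1, JDP2, SLC1A4, SLC1A5, SLC3A2 and SLC7A1, all of them called lower at H1R6. Of the 30 genes 25 were called lower, so most were lower whether or not they held a match. The calls of ASNS, ATF3 and JDP2 were lost without single libraries, as given below. In the synthetase list 7 of 16 held a match (43.8%), of which AARS1, CARS1, GARS1, IARS1, MARS1 and NARS1 were called lower and TARS1 was not. Of the 16 genes 9 were called lower. The CARS1 and NARS1 calls were lost without either H1R6 library or without NC replicate 1 (adjusted p 0.0726 to 0.308 for CARS1 and 0.11 to 0.156 for NARS1, edgeR). Among the chaperones 2 of 28 held one. Members of the ATF4 list were chosen as known ATF4 targets or regulators.

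The decreases covered genes of serine synthesis, amino acid import and mitochondrial carbon metabolism. PCK2, the mitochondrial PEP carboxykinase, had 39.9 and 38.7 CPM at H1R6 against 143 and 161 CPM in NC, a log2 fold change of -1.95 (edgeR, adjusted p = 1.27e-10, SE 0.14), against -0.29 at H1 and -1.82 at H1R1. SLC7A11, the cystine importer, had 94.1 and 69.7 CPM at H1R6 against 274 and 314 CPM in NC (log2 fold change -1.84, SE 0.13), against -0.18 at H1 and -1.49 at H1R1. In both, each H1R6 library was well below each NC library. The serine pathway enzymes PHGDH and PSAT1 had log2 fold changes of -0.84 (SE 0.09) and -0.96 (SE 0.12), with 417 and 378 CPM at H1R6 against 676 and 744 CPM in NC for PHGDH. The folate enzyme MTHFD2 had 198 and 180.1 CPM at H1R6 against 351 and 370.2 CPM in NC (log2 fold change -0.93). Among transporters, the cationic amino acid carrier SLC7A1 had a log2 fold change of -0.66 and the large neutral amino acid carrier SLC7A5 one of -0.45. ASNS, asparagine synthetase, had 17.3 and 6.44 CPM at H1R6 against 24.6 and 24.6 CPM in NC, a log2 fold change of -1.05 (edgeR, adjusted p = 0.021, SE 0.29). The ASNS call rested on single libraries, being lost without H1R6 replicate 2 (-0.51, adjusted p = 0.388) or without NC replicate 1 (0.104) or 2 (0.0742), and without H1R6 replicate 1 the fold change was -1.93.

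Regulators in the list fell as well. ATF4 had 388 and 319 CPM at H1R6 against 585 and 572 CPM in NC, a log2 fold change of -0.71 (edgeR, adjusted p = 2.31e-06, SE 0.09), against -0.02 at H1 and -0.40 at H1R1. DDIT4 and SESN2, stress-induced inhibitors of mTORC1 signalling, had log2 fold changes of -1.52 and -1.43, both further below NC than at H1R1 by 1.02 and 0.91. CHAC1, a glutathione-degrading enzyme, had 14.3 and 2.09 CPM at H1R6 against 60.6 and 45.98 CPM in NC (log2 fold change -2.71, SE 0.35). Its H1R6 libraries differed widely, and the fold change was -4.66 without H1R6 replicate 1 and -1.90 without H1R6 replicate 2. JDP2, a bZIP repressor, had 11.7 and 3.48 CPM at H1R6 against 26.05 and 21.4 CPM in NC (log2 fold change -1.66). The value for JDP2 was -2.77 without H1R6 replicate 1, and its call was lost without H1R6 replicate 2 (-1.03, adjusted p = 0.0598, edgeR) and with DESeq2. The peptide hormone gene ADM2 had 5.30 and 2.09 CPM at H1R6 against 15.3 and 13.6 CPM in NC (log2 fold change -1.96).

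Some members were above NC earlier and below it at H1R6. CEBPG, a bZIP partner of ATF4, had log2 fold changes of 0.12 at H1, 0.31 at H1R1 and -0.90 at H1R6, with 66.8 and 63.6 CPM at H1R6 against 109.9 and 134 CPM in NC. SLC38A2, the SNAT2 glutamine transporter, gave 0.34, 0.83 and -0.42 at the same times, and its H1R6 call was lost without H1R6 replicate 2 (-0.30, adjusted p = 0.0567, edgeR). ATF3, a stress-induced bZIP factor, gave 1.43, 1.22 and -0.59, with 28.3 and 27.5 CPM at H1R6 against 42.9 and 40.8 CPM in NC. Its H1R6 call was lost without H1R6 replicate 1 (adjusted p = 0.0684), H1R6 replicate 2 (0.11) or NC replicate 1 (0.103). PPP1R15A, the GADD34 subunit that dephosphorylates eIF2α, had 27.2 and 30.3 CPM at H1R6 against 32.1 and 24.3 CPM in NC and an interval within the bounds (-0.33 to 0.36), which it left without H1R6 replicate 1 or either NC library. ALDH18A1, of proline synthesis, was back at the untreated level (log2 fold change -0.04).

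Cytosolic aminoacyl-tRNA synthetases, which charge tRNAs with amino acids, were lower in 11 of 20 cases and higher in 1, with 10 within 0.5 (median log2 fold change -0.28, against -0.04 at H1 and -0.16 at H1R1). Of all genes tested 4.49% were lower and 3.46% higher. The largest decreases with high counts were in GARS1, the glycine enzyme, at 223 and 195 CPM at H1R6 against 368 and 345 CPM in NC (log2 fold change -0.77, SE 0.10, adjusted p = 4.18e-06, edgeR), and MARS1, the methionine enzyme, at 211 and 202 CPM at H1R6 against 328 and 324 CPM in NC (log2 fold change -0.66, SE 0.08). AARS1, EPRS1 and IARS1 had -0.45, -0.46 and -0.37, each with both H1R6 libraries below both NC libraries. RARS1, the arginine enzyme, was the member called higher, at 131 and 131 CPM at H1R6 against 97.3 and 94.6 CPM in NC (log2 fold change 0.45, SE 0.09). The number called lower was 6 without H1R6 replicate 2 and 8 without H1R6 replicate 1.

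**Figure D3:**
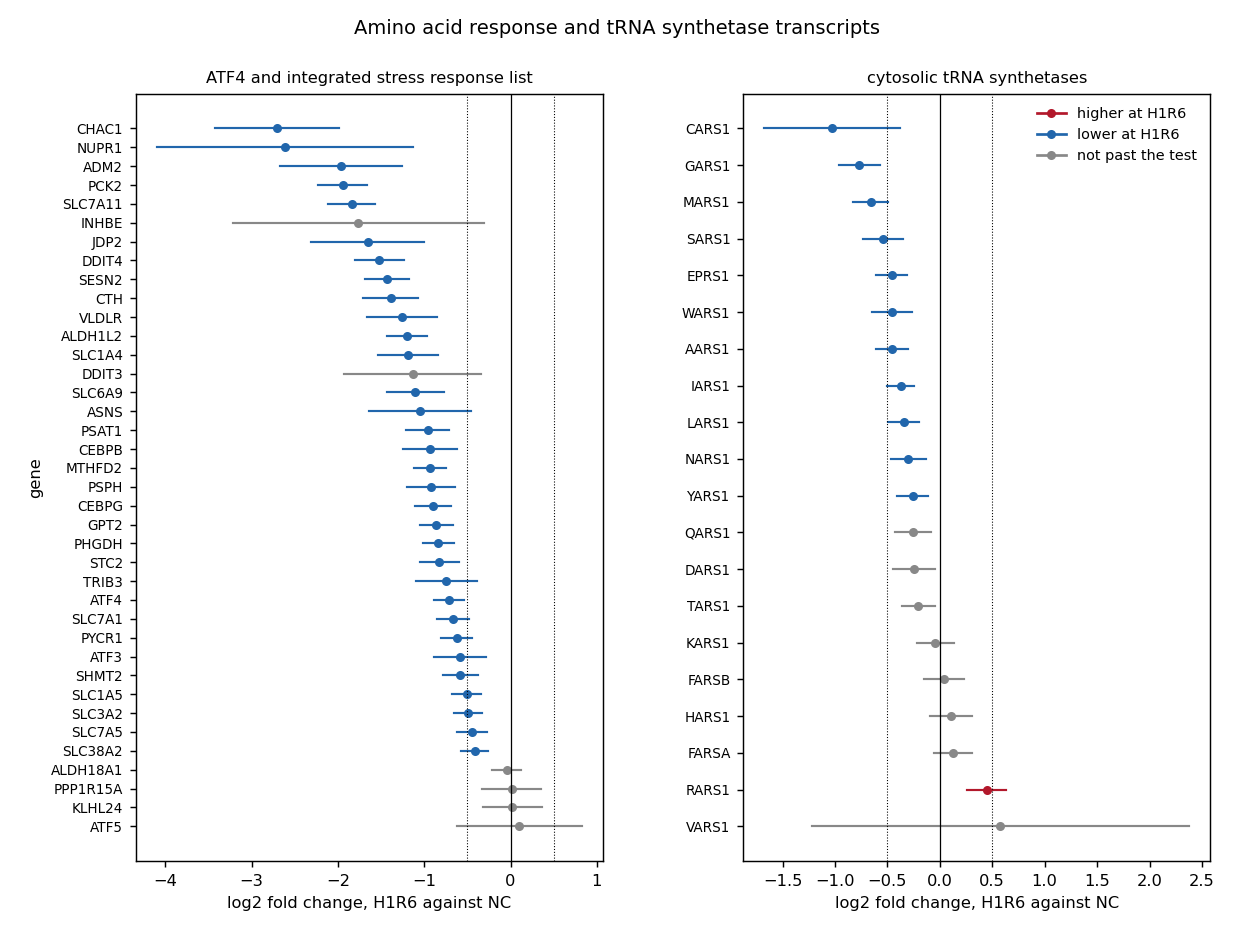
Log2 fold change of H1R6 over NC (horizontal axis, points with 95% intervals) for the tested genes of the ATF4 list and the cytosolic tRNA synthetases, with dotted lines at -0.5 and 0.5. Of the 38 ATF4 list genes 32 are called lower and none higher, and of the 20 synthetases 11 are called lower and RARS1 higher.

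Genes of the endoplasmic reticulum moved in both directions. The shares over all genes tested were 4.49% lower and 3.46% higher. Of 26 tested ER chaperone and unfolded protein response genes, 6 were lower, 1 was higher and 16 lay within 0.5 (median -0.17), whereas at H1R1 9 were higher and 2 lower. HERPUD1, of ER-associated degradation, had 62.3 and 57.1 CPM at H1R6 against 129 and 130.1 CPM in NC, a log2 fold change of -1.12 (edgeR, adjusted p = 4.15e-09, SE 0.09), after 0.67 at H1R1. XBP1, a transcription factor of the unfolded protein response, had 95.2 and 109.7 CPM at H1R6 against 164 and 180.0 CPM in NC (log2 fold change -0.75), and the ER-bound factor CREB3L2 one of -0.56. HSPA5, the ER HSP70 known as BiP, was the member called higher, at 779 and 858 CPM at H1R6 against 512 and 562 CPM in NC (log2 fold change 0.61, SE 0.07, adjusted p = 1.07e-06, edgeR), after 0.95 at H1R1. The lectin chaperone CANX and the disulfide isomerase P4HB were back at the untreated level (-0.16 and -0.13).

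Most proteasome genes lay within 0.5 of NC, as did 28.5% of all genes tested and 67.8% of those at a log2 CPM of 5 or more. Of all genes tested 3.46% were called higher and 4.49% lower. Of 41 proteasome genes, 32 lay within 0.5 and 1, the lid subunit PSMD12, was called higher (138 and 143 CPM at H1R6 against 108 and 104.2 CPM in NC, log2 fold change 0.41), a call lost without H1R6 replicate 2 (adjusted p = 0.0639, edgeR). No proteasome gene was called lower by edgeR or DESeq2, while without adjustment 9 were higher and 1 lower at p under 0.05. The number called higher was 4 with at least 10 counts in every NC and H1R6 library or with protein-coding genes only, 2 with library-size scaling or without NC replicate 1 or H1R1 replicate 2, and 16 at H1R1. Ubiquitin and substrate delivery genes gave 2 higher, 2 lower and 13 within 0.5 of 16. The number higher was 0 without H1R6 replicate 2 or NC replicate 2 and 1 without the other library of either pair or either H1 library, and the number lower was 1 without any 1 of the NC and H1R6 libraries or H1R1 replicate 2. The polyubiquitin gene UBB had 214 and 214 CPM at H1R6 against 191 and 217 CPM in NC and was back at the untreated level (interval -0.09 to 0.24). ZFAND2A, a proteasome-associated zinc finger protein induced by heat and arsenite, had 10.6 and 17.4 CPM at H1R6 against 8.55 and 7.58 CPM in NC, a log2 fold change of 0.79 (edgeR, adjusted p = 0.0473, SE 0.25) after 3.56 at H1R1. That call was lost without H1R6 replicate 2 (0.38, adjusted p = 0.572) and also without either NC or either H1 library. Of 30 autophagy and lysosome genes 16 lay within 0.5, 11 met neither criterion, 2 were higher and 1 lower. The number higher was 4 with ENSG00000281181 removed from the libraries and 1 without either H1R6 library, and the lower call was lost without any 1 of the NC and H1R6 libraries. The lysosomal galactosidase gene GLA had 411 and 423 CPM at H1R6 against 283 and 308 CPM in NC (log2 fold change 0.50, SE 0.07). The gene UBE2QL1, a ubiquitin-conjugating enzyme homologue, was at 5.65 and 4.53 CPM at H1R6 against 14.7 and 16.98 CPM in NC (log2 fold change -1.63) after 1.00 at H1R1.

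Several immediate early genes were back at the untreated level. Of 33 tested, 14 were higher and 1 lower at H1, 16 were higher and 2 lower at H1R1, and 3 were higher and 2 lower at H1R6 (1 higher without H1R6 replicate 2 or NC replicate 1, and 1 lower without H1R6 replicate 1). At H1R6 7 lay within 0.5 and 21 met neither criterion, and in the direct test against H1R1 14 were lower and 1 was higher. JUN, a subunit of AP-1, had 279 and 336 CPM at H1R6 against 278 and 292 CPM in NC, a log2 fold change of 0.11 (95% interval -0.04 to 0.27) after 2.43 at H1 and 1.76 at H1R1. DUSP1, a phosphatase of stress kinases, had 56.2 and 60.96 CPM at H1R6 against 57.8 and 54.9 CPM in NC (log2 fold change 0.05, interval -0.16 to 0.26) after 2.82 at H1R1. MYC had moved the other way, with -1.35 at H1 and -1.08 at H1R1, and was at 305 and 329 CPM at H1R6 against 295 and 291 CPM in NC (log2 fold change 0.12, interval -0.06 to 0.29). All 3 intervals lay within 0.5, so these genes were back at the untreated level. GADD45B, a stress signalling protein, was still higher, at 37.8 and 44.1 CPM at H1R6 against 10.99 and 18.8 CPM in NC (log2 fold change 1.49, SE 0.19, adjusted p = 8.11e-06, edgeR).

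Smaller and less stable calls stood among the other immediate early genes. DUSP5, a nuclear ERK phosphatase, had 21.2 and 22.3 CPM at H1R6 against 8.95 and 13.3 CPM in NC and IER5, a target and cofactor of HSF1, had 91.5 and 109 CPM at H1R6 against 75.3 and 76.8 CPM in NC. The DUSP5 call was lost without H1R6 replicate 2 (adjusted p = 0.0779) or NC replicate 1 (0.147), and the IER5 call without H1R6 replicate 2 (log2 fold change 0.27, adjusted p = 0.324) or without NC replicate 1 (0.0878) or 2 (0.0643). JUND was above NC at H1R1 (0.92) and below it at H1R6 (-0.45, SE 0.09, adjusted p = 0.00235, edgeR), with 88.7 and 89.5 CPM at H1R6 against 115 and 129 CPM in NC. FOSB had 11.3 and 20.9 CPM at H1R6 against 39.1 and 36.1 CPM in NC (log2 fold change -1.22), a call lost without H1R6 replicate 1 (-0.85, adjusted p = 0.0545). FOS had 12.7 and 19.9 CPM at H1R6 against 20.1 and 27.7 CPM in NC and met neither criterion (adjusted p = 0.147). Of these 33 genes, 27 were higher in H1R6 replicate 2 than in H1R6 replicate 1 (median log2 difference 0.27), and 12 were higher in NC replicate 2 than in NC replicate 1 (median -0.08).

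Among 15 BCL2 family genes, which set the threshold of apoptosis, 1 was higher and 2 were lower (1 without H1R6 replicate 2 or NC replicate 2). Such small counts do not set the list apart from the 3.46% higher and 4.49% lower over all genes tested. HRK, a BH3-only promoter of cell death, had 16.6 and 14.1 CPM at H1R6 against 38.7 and 31.4 CPM in NC, a log2 fold change of -1.2 (edgeR, adjusted p = 2.19e-05, SE 0.17) after 0.91 at H1R1. MCL1, which protects cells, had 254 and 253 CPM at H1R6 against 193 and 204 CPM in NC (log2 fold change 0.35, SE 0.08) after 1.17 at H1R1. BCL2L11, the BIM gene, had 49.6 and 53.6 CPM at H1R6 against 50.7 and 43.6 CPM in NC with an interval within the bounds (-0.13 to 0.38), which it left without NC replicate 1.

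**Figure D4:**
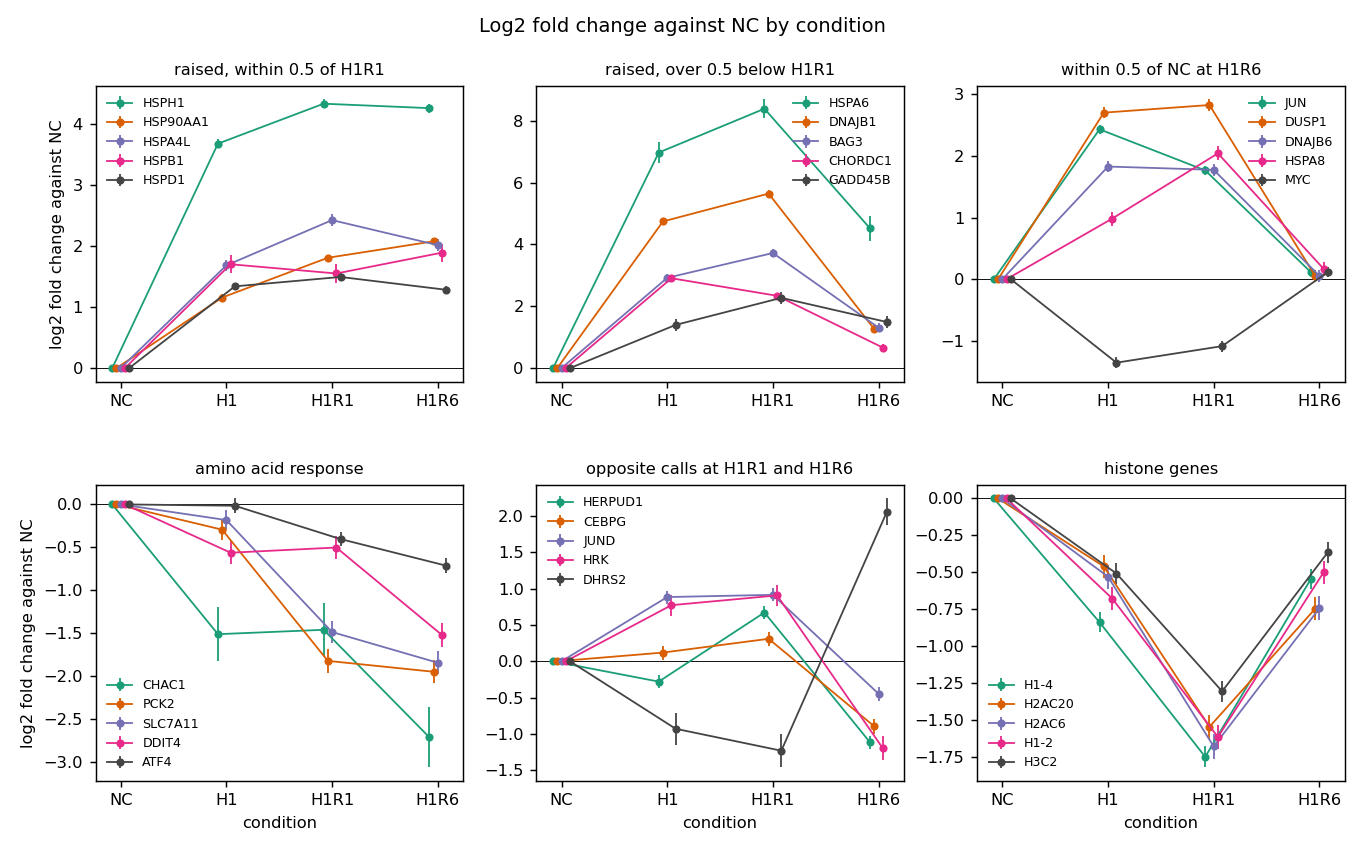
Log2 fold change against NC (vertical axes, points with bars of 1 SE from the fit, NC set to 0) of selected genes at NC, H1, H1R1 and H1R6, in 6 panels. HSPH1 ends near its H1R1 value, JUN and DUSP1 end within 0.5 of NC, HERPUD1 and CEBPG are above NC at H1R1 and below it at H1R6, and H1-4 has -0.54 at H1R6 after -1.75 at H1R1.

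Transcripts of the replication-dependent histones were closer to NC at H1R6 than at H1R1. Of 65 listed genes, 52 were tested. At H1R6 26 of them were lower and 1 was higher, with 16 within 0.5 and a median log2 fold change of -0.32, against 37 lower at H1 (median -0.51) and 45 lower at H1R1 (median -1.30). In the direct test against H1R1, 46 of the 52 were higher at H1R6. Of all genes tested 4.49% were lower and 3.46% higher at H1R6 than in NC. The count of members called lower was 17 without H1R6 replicate 1, 16 without H1R6 replicate 2 and 14 without NC replicate 2. The linker histone gene H1-4 had 1074 and 1037 CPM at H1R6 against 1463 and 1615 CPM in NC, a log2 fold change of -0.54 (edgeR, adjusted p = 5.02e-06, SE 0.07) after -1.75 at H1R1, and H1-2 had 1079 and 1039.9 CPM at H1R6 against 1431 and 1565 CPM in NC (log2 fold change -0.50). Core histone genes gave similar log2 fold changes: H2AC20 had -0.75, H2AC6 -0.74, H2AC13 -0.72 and H3C2 -0.36, and for H2AC20 the levels were 214 and 216 CPM at H1R6 against 348 and 372 CPM in NC. H4C15 was the member called higher (128 and 117 CPM at H1R6 against 90.3 and 101 CPM in NC), a call lost with DESeq2 and without any 1 of NC replicate 1 and the H1 and H1R6 libraries. Replacement histone variants, which are made outside S phase, gave 1 higher and 1 lower of 11, both lost without H1R6 replicate 2, the higher also without NC replicate 1 and the lower also without H1R6 replicate 1 or NC replicate 2. Histone genes are near-identical in sequence, so the split of reads among them is uncertain.

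Cell cycle genes changed little in size. Over all genes tested 3.46% were called higher, 4.49% were called lower and 28.5% lay within 0.5. Of 39 DNA replication and S phase genes, 7 were lower and 3 higher, with 27 within 0.5. The number lower was 2 without H1R6 replicate 2 and 4 without NC replicate 1, and the number higher was 0 without H1R6 replicate 2 and 1 without H1R6 replicate 1. MCM5 and MCM2, of the replicative helicase, had log2 fold changes of -0.44 and -0.40, and LIG1, the replicative ligase, one of -0.50. CDC25A, the phosphatase that activates S phase kinases, was higher at 193 and 227 CPM at H1R6 against 163 and 144 CPM in NC (log2 fold change 0.45). Of these calls MCM2, LIG1 and CDC25A were lost without H1R6 replicate 2 (adjusted p = 0.0607, 0.0514 and 0.0976 in that order, edgeR), and MCM2 also without NC replicate 1 (-0.29, adjusted p = 0.0823). Of 30 G2 and mitosis genes, 9 were higher and 1 lower, with a median of 0.25. The spindle checkpoint kinase BUB1 had 188 and 176 CPM at H1R6 against 131 and 119.9 CPM in NC (log2 fold change 0.53, SE 0.09, adjusted p = 0.000149, edgeR), the proliferation marker MKI67 had 679.8 and 686 CPM at H1R6 against 538 and 520.2 CPM in NC (log2 fold change 0.37) and the anaphase activator CDC20 had 135 and 138 CPM at H1R6 against 102 and 95.6 CPM in NC (log2 fold change 0.46). The number of G2 and mitosis genes called higher was 6 without H1R6 replicate 1 and 4 without H1R6 replicate 2, but 15 with at least 10 counts in every NC and H1R6 library and 16 with protein-coding genes only. The lower call was lost with DESeq2 and without H1R6 replicate 1 or NC replicate 1. TOP2A, topoisomerase II, missed the threshold (log2 fold change 0.21, adjusted p = 0.0531) and lay within 0.5. Of 9 G1 cyclin and inhibitor genes none was called by edgeR or DESeq2, and 1 in each direction had an unadjusted p under 0.05.

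The called ribosomal protein genes were lower, and the called ribosome assembly genes were higher with 1 exception. The shares over all genes tested were 4.49% lower, 3.46% higher and 28.5% within 0.5. Of 75 cytosolic ribosomal protein genes, 15 were lower, none was called higher by edgeR or DESeq2 (1 at an unadjusted p under 0.05), and 69 lay within 0.5, so that the decreases were small (median -0.11). RPL3 had 1182 and 1223 CPM at H1R6 against 1522 and 1600.0 CPM in NC (log2 fold change -0.38, SE 0.06, adjusted p = 0.000253, edgeR), and RPL4 and RPS2 had -0.34 and -0.34, both called and yet within 0.5. The count of ribosomal protein genes called lower was 7 without H1R6 replicate 1. Of 49 ribosome biogenesis genes 13 were higher and 1 lower (median 0.23), after 31 higher at H1R1. The processome factor UTP15 had 60.2 and 58.2 CPM at H1R6 against 30.5 and 33.4 CPM in NC (log2 fold change 0.89, SE 0.15), the assembly factor MRTO4 had 81.1 and 91.96 CPM at H1R6 against 53.7 and 51.2 CPM in NC (log2 fold change 0.72) and PES1, of the PeBoW complex, had 171 and 205 CPM at H1R6 against 131 and 128 CPM in NC (log2 fold change 0.54). The biogenesis count was 9 without H1R6 replicate 1, 4 without H1R6 replicate 2 and 9 without NC replicate 1, and the lower call was lost without any 1 library other than H1R1 replicate 1. Of 18 small nucleolar RNA host transcripts 2 were higher (1 without H1R6 replicate 2 or NC replicate 2, and 4 with at least 10 counts in every NC and H1R6 library), among them SNHG12 at 54.8 and 64.96 CPM at H1R6 against 32.96 and 35.01 CPM in NC (log2 fold change 0.82).

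Oxidative phosphorylation genes and NRF2 targets lay mostly within 0.5 of NC. The share within 0.5 was 28.5% over all genes tested and 67.8% at a log2 CPM of 5 or more, and both lists were near the latter. Over all genes tested 3.46% were called higher and 4.49% lower. Among 75 nuclear-encoded oxidative phosphorylation genes 1 was higher, 2 were lower and 56 lay within 0.5, with no call left without H1R6 replicate 2. Among 20 antioxidant targets of NRF2 1 was higher, 1 was lower and 14 lay within 0.5, with no call left without either H1R6 library or without NC replicate 1, and 2 lower without NC replicate 2. Of 31 sterol and fatty acid synthesis genes 4 were higher (1 without H1R6 replicate 1) and 2 lower (1 without NC replicate 1), with 14 within 0.5 and 12 that met neither criterion. HMGCS1, an early enzyme of cholesterol synthesis, had 95.6 and 84.3 CPM at H1R6 against 51.9 and 52.3 CPM in NC (log2 fold change 0.79, SE 0.11, adjusted p = 2.74e-05, edgeR). The fatty acid desaturase FADS2 was lower, at 15.01 and 17.9 CPM at H1R6 against 33.4 and 37.1 CPM in NC (log2 fold change -1.09). Of 32 glycolysis and hypoxia-factor targets 6 were lower and 2 higher, with 19 within 0.5. The number lower was 3 without either H1R6 library and 2 without NC replicate 1, and the number higher was 1 without either H1R6 library, 0 without NC replicate 2 and 4 with protein-coding genes only. The growth factor gene VEGFA had 79.3 and 72.8 CPM at H1R6 against 126 and 105 CPM in NC (log2 fold change -0.61), and the enolase gene ENO2 had 22.96 and 26.1 CPM at H1R6 against 13.8 and 11.5 CPM in NC (log2 fold change 0.94), a call lost without H1R6 replicate 2 (adjusted p = 0.0845) or NC replicate 2 (0.0524).

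A list of 26 genes that the study names lay for the most part within 0.5 of NC. It leaves out others that the study names, such as HSP90AA1 (log2 fold change 2.08). The share within 0.5 was 28.5% over all genes tested and 67.8% at a log2 CPM of 5 or more. Over all genes tested 3.46% were called higher and 4.49% lower. Of the 26 genes 25 were tested, and 19 lay within 0.5, of which 15 were not called. At H1 2 of the 25 were higher, and at H1R1 11 were higher and 2 lower. At H1R6 4 were higher (2 without H1R6 replicate 2 or NC replicate 1) and 2 were lower (0 without NC replicate 1 or either H1R6 library). DNAJB1 was among the 4. Vimentin (VIM) had 240.0 and 247 CPM at H1R6 against 200.4 and 207 CPM in NC, a log2 fold change of 0.26 (adjusted p = 0.0392, edgeR), and lamin B1 (LMNB1) had 182 and 191 CPM at H1R6 against 231 and 219.7 CPM in NC (log2 fold change -0.28, adjusted p = 0.035). Both calls lay within 0.5 and were lost without NC replicate 1 or either H1R6 library, among other settings. Lamin A (LMNA) was at the untreated level (log2 fold change 0.05). Nuclear pore genes gave 4 higher and 1 lower of 30. The number higher was 2 without H1R6 replicate 2, 7 with library-size scaling and 8 with at least 10 counts in every NC and H1R6 library or with protein-coding genes only. The nuclear basket gene NUP153 had 325 and 335 CPM at H1R6 against 249.7 and 263 CPM in NC (log2 fold change 0.36), SEH1L had 103 and 109.5 CPM at H1R6 against 70.00 and 62.7 CPM in NC (log2 fold change 0.67) and the membrane nucleoporin NUP210 was lower, at 276 and 249 CPM at H1R6 against 428 and 377 CPM in NC (log2 fold change -0.62).

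Of 16 LINC complex and nuclear membrane genes 13 lay within 0.5 and 1 was higher, a call lost without either H1R6 library. Over all genes tested 3.46% were higher, 4.49% were lower and 28.5% lay within 0.5 (67.8% at a log2 CPM of 5 or more). Among 16 actin and SRF target genes 2 were lower (1 without any 1 of the NC and H1R6 libraries), among them filamin A (FLNA, log2 fold change -0.34), and ACTB was at the untreated level (1709.9 and 1721 CPM at H1R6 against 1891 and 1748 CPM in NC). Of 10 tubulin genes 2 were higher (1 without H1R6 replicate 2 or either NC library), with TUBB4B at 291 and 313 CPM at H1R6 against 219 and 196 CPM in NC (log2 fold change 0.54). Of 11 stress granule genes 2 were higher (1 without H1R6 replicate 2 or NC replicate 1) and 10 lay within 0.5. G3BP2, a nucleator of stress granules, had 329 and 363 CPM at H1R6 against 259.8 and 246 CPM in NC (log2 fold change 0.45, SE 0.08). All 17 tested SR splicing factor and CLK kinase genes lay within 0.5. None of them was called by edgeR or DESeq2, and 3 were higher at an unadjusted p under 0.05. By edgeR 1 was called higher with any other scaling or filter run and without H1R6 replicate 1 or H1R1 replicate 2. The cold-inducible RNA-binding protein genes were both lower, CIRBP at 175 and 169 CPM at H1R6 against 253 and 277 CPM in NC (log2 fold change -0.62, SE 0.08, adjusted p = 1.65e-05, edgeR) and RBM3 at 203 and 207 CPM at H1R6 against 257 and 269 CPM in NC (log2 fold change -0.36). CIRBP had also been below NC at H1 (-0.59) and H1R1 (-0.85). The nuclear noncoding RNA MALAT1, of nuclear speckles, was higher, at 5156 and 5301 CPM at H1R6 against 2846 and 3219 CPM in NC (log2 fold change 0.79, SE 0.06, adjusted p = 1.71e-10, edgeR), after 0.25 at H1R1. NEAT1, the scaffold of paraspeckles, had 625 and 683 CPM at H1R6 against 522 and 960.4 CPM in NC, with NC libraries on both sides of the H1R6 libraries, and its interval left the bounds without any 1 of the NC or H1R6 libraries. NEAT1 was called lower without NC replicate 1 and higher without NC replicate 2. Of 15 circadian clock genes 2 were lower (0 without either H1R6 library or NC replicate 1, and 1 without NC replicate 2).

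**Figure D5:**
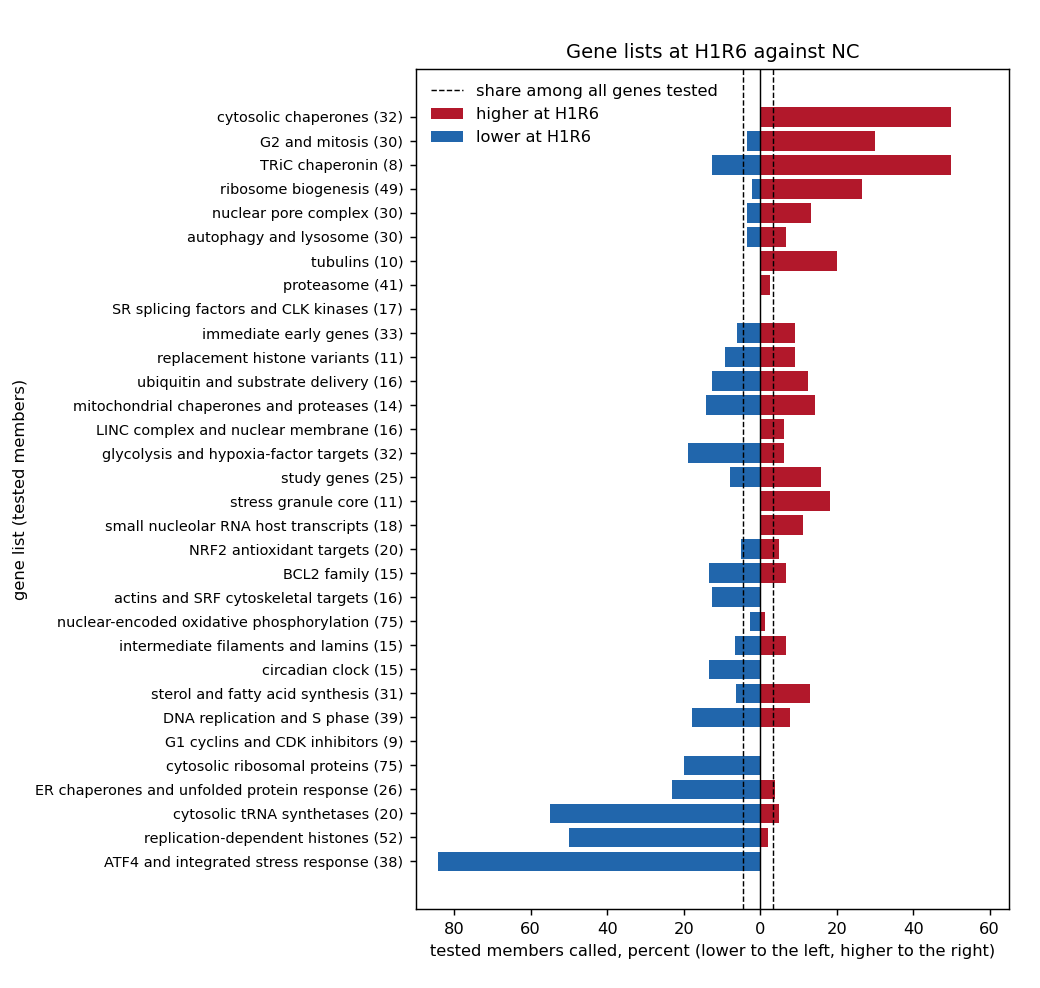
Percentage of the tested genes of each list with 8 or more genes tested, marker lists left out (rows, number tested in brackets) that were called higher (to the right) or lower (to the left) at H1R6 against NC, with dashed lines at the shares over all genes tested, 3.46% higher and 4.49% lower. The ATF4 list (32 of 38 lower), tRNA synthetases (11 of 20 lower) and histones (26 of 52 lower) reach furthest to the left, and cytosolic chaperones (16 of 32) and TRiC (4 of 8) furthest to the right.

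Outside the lists, DHRS2, a mitochondrial and nuclear short-chain dehydrogenase/reductase (chr14:23630115-23645639), had 107 and 105 CPM at H1R6 against 21.98 and 29.3 CPM in NC, a log2 fold change of 2.06 (edgeR, adjusted p = 7.19e-09, SE 0.18). It had been below NC at H1 (-0.93) and H1R1 (-1.23). ACTRT3, an actin-related protein gene, had 7.42 and 8.01 CPM at H1R6 against 1.63 and 1.57 CPM in NC (log2 fold change 2.25), after 3.25 at H1R1, and the galactosyltransferase gene B3GALT2 had 10.6 and 10.1 CPM at H1R6 against 3.66 and 1.57 CPM in NC (log2 fold change 1.92). Among the largest decreases, TMEM132B, a transmembrane protein gene, had 3.53 and 2.44 CPM at H1R6 against 14.7 and 16.7 CPM in NC (log2 fold change -2.38) and KSR2, a scaffold of MAP kinase signalling, had 6.01 and 4.53 CPM at H1R6 against 20.6 and 19.9 CPM in NC (log2 fold change -1.94). In each of these genes the groups did not overlap. The rule for naming the largest changes asked for this and nearly every call showed it, so it adds no support. TRIM66, which had been far below NC at H1R1 (-2.69), had 62.7 and 57.8 CPM at H1R6 against 69.2 and 72.6 CPM in NC, with a log2 fold change of -0.23 (adjusted p = 0.426), and was higher than at H1R1 by 2.46 (adjusted p = 2.78e-10, edgeR).

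Some of the largest fold changes rested on uneven libraries. ENSG00000283696 had 177 and 13.6 CPM at H1R6 against 10.6 and 13.1 CPM in NC (log2 fold change 3.02), and without H1R6 replicate 1 its log2 fold change was 0.21 (adjusted p = 0.819, edgeR). RN7SL242P, a pseudogene of the signal recognition particle RNA, had 43.8 and 79.8 CPM at H1R6 against 24.01 and 3.14 CPM in NC (log2 fold change 2.10, or 4.31 without NC replicate 1 and 1.36 without NC replicate 2), and DESeq2 did not call it. The chromosome 21 lincRNA genes ENSG00000281181 (chr21:8437629-8438551), ENSG00000281383 and ENSG00000280800 had log2 fold changes of -3.08, -3.28 and -2.28. A further lincRNA gene of that region, ENSG00000280614, was less uniform, with 739 and 1630 raw counts at H1R6 against 3875 and 1256 in NC. For ENSG00000281181 the levels were 725 and 1203 CPM at H1R6 against 11585 and 4688 CPM in NC, and the NC libraries differed by more CPM from each other than the H1R6 libraries did. The call of ENSG00000280800 was lost without NC replicate 1 (-1.26, adjusted p = 0.0928, edgeR) and with DESeq2. These genes are similar in sequence, and whether their reads come from lincRNAs or from another RNA of that region was not tested.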

How the data were processed

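RNA was sequenced from total RNA of HEK293T cells after removal of ribosomal RNA. The authors deposited 1 raw read count per gene and library for 60664 Ensembl 104 genes (GRCh38), made per the file headers and processing notes with cutadapt 4.1, HISAT2 2.2.1 and featureCounts 2.0.2. Both reads of a pair counted, strand was ignored, and reads that aligned to several places or genes were dropped, so genes with near-identical copies or an overlapping antisense gene are uncertain. The notes also name FastQC 0.11.8 and DESeq2 1.38.3. Between 81.8% and 87.5% of the counts above 0 were even. All 37 mitochondrially encoded genes were at 0. Gene types came from GENCODE 29, and current names were found for 60463 identifiers (99.7%).

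Counts of the 8 NC, H1, H1R1 and H1R6 libraries were filtered with filterByExpr, scaled by TMM and fitted with edgeR 4.0.16 (quasi-likelihood) in R 4.3.3 with limma 3.58.1, with 1 coefficient per condition. Benjamini-Hochberg adjustment ran over the 18871 genes left, with a threshold of 0.05. The SE is the log2 fold change divided by the square root of the F statistic, and intervals are at 95%. The common biological coefficient of variation was 0.089. H1R18 entered neither filter nor fit. CPM of single libraries carry counting error besides the spread between libraries. Promoter windows are from RefSeq (GRCh38.p14). Tables and plots used Python 3.11.15 with pandas 2.3.3, numpy 2.4.6, scipy 1.17.1 and matplotlib 3.10.9, and the fit was tested on simulated data.

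The comparison, the gene lists and the tests were chosen with earlier results of these data known. Genes were named by a rule. It took the 15 largest called changes in each direction among genes whose log2 CPM averaged 3 or more and whose groups did not overlap. The 10 largest at H1R1 were added, as were the 3 most abundant and the 3 with the smallest adjusted p of each list. A list of genes that the study names, which does not hold all of them, completed it. Other list members and genes were named with their values known. Some genes that the rule picks are not reported here. Alternatives were DESeq2 1.42.0, RLE, upper-quartile and library-size scaling, other filters, all 9 libraries, only NC and H1R6, protein-coding genes, a replicate block, a test against a log2 fold change of 1, other bounds than 0.5 and each library left out. Halving the counts to read pairs and removing ENSG00000281181 were added after seeing the data.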

Additional observations from a re-analysis of the deposited data

Results flagged for a closer look

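Of the genes named in the report, 79 differed between H1R6 and H1R1 by the direct test between the 2 conditions (edgeR, adjusted p under 0.05), and 9 of these were called on opposite sides of NC at the 2 times. Both times share the NC libraries. HERPUD1, JUND, HRK, CEBPG, ATF3, SLC38A2 and UBE2QL1 were above NC at H1R1 and below it at H1R6, with log2 differences between H1R6 and H1R1 of -1.79, -1.36, -2.10, -1.21, -1.81, -1.25 and -2.63 in that order. DHRS2 and H4C15 were below NC at H1R1 and above it at H1R6, with differences of 3.29 and 1.34. The H1R6 calls of SLC38A2, ATF3 and H4C15 depended on single libraries, as given in the report.

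The single H1R18 library, which entered no test, held HSPH1 at 328.9 CPM, HSP90AA1 at 2229.8 CPM and HSP90AB1 at 1298 CPM, scaled by TMM over all 9 libraries, each above both NC libraries. With 1 library these values have no replicate check.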

How the results depend on the processing

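The directions of all 111 named genes called at H1R6 held under every alternative run, and the calls of 88 of them held under all but the threshold of 1 on the log2 fold change, under which 18 held. Of 20 named genes within 0.5 of NC and not called, 16 stayed there in every alternative fit that gave an interval. That threshold left 13 genes higher and 8 lower, by construction. The number of genes back at the untreated level was 9261 with no filter on low counts (40218 genes tested), 1483 with bounds of 0.3 and 11161 with bounds of 1. Leaving out 1 library at a time gave 245 to 749 genes higher, 340 to 878 lower and 3906 to 5439 within 0.5, with the lowest numbers of calls without H1R6 replicate 2. DESeq2 called 488 higher and 585 lower. Scaling by library size gave 783 higher and 732 lower, and no other scaling moved the share of higher calls further from 43.5%. The genes kept moved it as well. With at least 10 counts in every NC and H1R6 library there were 854 higher and 759 lower, and with protein-coding genes only 886 and 890. With no filter on low counts there were 717 and 717, and without ENSG00000281181 743 and 767. Which direction had more calls thus depended on the setting. The median log2 fold change over all genes moved by less than 0.1 under every scaling. Deviations of same-numbered H1R6 and NC libraries correlated by -0.0386 over 11730 genes. With 2 libraries per group this cannot show whether same-numbered libraries were handled together. The replicate block gave 632 genes higher, 813 lower and 5310 within 0.5. Genes under an average log2 CPM of 2 had a median SE of 0.74, and the part of depth in this was not tested.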

Other observations

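Long genes were called lower more often than short ones. Among 13339 protein-coding genes tested, 5.80% were lower at H1R6. The share was 17.6% in the 216 genes spanning over 500 kb, of which 38 were lower and 3 higher, 9.07% in the 364 genes of 300 to 500 kb, 6.80% in the 2237 genes of 100 to 300 kb, and 5.86% in the 1059 genes of up to 5 kb. The median log2 fold change was -0.29 over 500 kb and 0.04 up to 5 kb. At H1R1 the medians of these classes were -0.27 and 0.04, from a comparison that shares the NC libraries. Average levels of the longest and shortest classes were alike (median log2 CPM 4.15 and 4.08). The part of level or of any other property of long genes in this was not tested.

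Gene types other than protein-coding genes also differed. Of 120 snRNA genes 13 were lower (10.8%) and 7 higher (5.83%) at H1R6, with a median log2 fold change of 0.04. Of 207 genes annotated as misc_RNA, 14 were higher (6.76%) and 5 lower (2.42%) at H1R6 (median log2 fold change 0.43), and of 123 small nucleolar RNA genes 10 were lower (8.13%) and none higher (median -0.24), against 3.46% higher and 4.49% lower over all genes tested. Of 1580 processed pseudogenes 25 were higher (1.58%) and 5 lower (0.316%), both below the shares over all genes, and reads of such copies can belong to their parent genes.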
